A study of Mus musculus with 16 samples.

Results

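The nuclear genes for the subunits of respiratory complexes III and IV and of ATP synthase were followed in mouse left ventricle. They were taken from the gene-level count table by symbol: every protein-coding gene whose symbol starts with Uqcr, with Cox followed by a digit between 4 and 8, or with Atp5, together with Cyc1 and Cycs. This gave 45 of the 53764 genes in the table. There were 9 genes of complex III (Cyc1 included), 18 of complex IV, 17 of ATP synthase and the gene for the electron carrier cytochrome c, Cycs. A further 8 genes with matching symbols were not protein-coding and were left out. Subunits that carry other symbols, such as Ndufa4 of complex IV and Usmg5 of ATP synthase, are not among the 45. Genes of mitochondrial DNA numbered 0 in the table. The catalytic core of complex IV, cytochrome b of complex III and the subunits a and A6L of ATP synthase, which mitochondrial DNA encodes, were therefore not analysed here.

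Complex III passes electrons from ubiquinol to cytochrome c, complex IV passes them on to oxygen, and both pump protons across the inner mitochondrial membrane. ATP synthase lets the protons back and makes ATP, which the beating ventricle uses at a high and steady rate. Several complex IV subunits come as pairs of genes, with one form used in heart and skeletal muscle and another in most other tissues.

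The hearts came from 16 male C57BL/6J mice that entered the study at 8 weeks of age and were fed for 4 months. There were 4 hearts in each of 4 groups: HFHS ertugliflozin, HFHS untreated, CD ertugliflozin and CD untreated, where HFHS is a diet high in fat and sucrose and CD the low-fat control diet. Ertugliflozin, an inhibitor of the kidney glucose transporter SGLT2, was mixed into the chow at 0.5 mg/g, and untreated mice ate the same diet without it. The submitters chose the 4 hearts of each group as representative of a larger set, so the spread and every p-value describe these hearts. Polyadenylated RNA of whole left ventricular tissue was sequenced, in which fewer cells of a type and less RNA per cell cannot be told apart.

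Libraries held 14637669 to 21452212 counts. The cardiac myosin gene Myh6 stood at 28955 to 38935 CPM (counts scaled to a common library size after TMM scaling). The fast skeletal myosins Myh1, Myh2 and Myh4 stood at 0 to 0.16 CPM. Of the genes listed for brown fat, Ucp1 stood at 0 to 3.94 CPM and Elovl3 at 0 to 0.325 CPM, but Cidea at 27.6 to 46.3 CPM. Libraries 2 and 3 of the CD untreated group stood apart in the summed level of 12 valve and cartilage markers, at 327 and 281 CPM, while the other 14 libraries lay between 30.7 and 112 CPM. CD untreated library 1 had 2363 CPM of 13 atrial markers, against 901 to 1340 CPM in the other 15 libraries. HFHS untreated library 1 had the highest summed level of 12 endothelial markers, at 3524 CPM, with the others at 2388 to 3022 CPM.

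Promoters are shown for the 5 genes of smallest p in the diet comparison, and for Atp5k as the one called gene whose window held an NRF1 match. RefSeq gave a window from 250 bases before to 50 bases after the start for 34 of the 45 genes (build GRCm38.p6), 2 of them under another symbol and 3 with more than 1 window. Both strands were searched for short stretches named for the factors that bind them. These were GCGCATGCG for NRF1, CCGGAAG for ETS factors such as GABPA, TCAAGGTCA for ERR, AAGATGG for YY1, GGGCGG for SP1, CCAAT for the CCAAT box and TATAAA for the TATA box. NRF1, GABPA and ERR are known as regulators of nuclear genes of oxidative phosphorylation. Capitals mark every match, read on the gene's strand, so a match on the other strand appears as its reverse complement and overlapping matches form 1 run. Atp5g1 lies at chr11:96075582-96075881, Cox6b1 at chr7:30626065-30626364, Atp5o at chr16:91931581-91931880, Cox5a at chr9:57520982-57521281, Cox8a at chr19:7217567-7217866 and Atp5k at chr5:108434350-108434649, all on the minus strand except Cox5a.
Atp5g1: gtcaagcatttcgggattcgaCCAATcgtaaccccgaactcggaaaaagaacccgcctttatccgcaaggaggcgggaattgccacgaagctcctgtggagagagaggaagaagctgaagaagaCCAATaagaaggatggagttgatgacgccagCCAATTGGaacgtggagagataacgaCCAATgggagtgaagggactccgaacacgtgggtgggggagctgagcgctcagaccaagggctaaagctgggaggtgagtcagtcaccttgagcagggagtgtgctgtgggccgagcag
Cox6b1: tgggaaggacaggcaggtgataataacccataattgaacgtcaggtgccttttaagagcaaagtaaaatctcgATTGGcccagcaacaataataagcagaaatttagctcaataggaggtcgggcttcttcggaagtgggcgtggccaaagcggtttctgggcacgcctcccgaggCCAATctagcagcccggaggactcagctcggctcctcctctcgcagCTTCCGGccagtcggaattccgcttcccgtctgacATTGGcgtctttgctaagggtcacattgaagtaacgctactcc
Atp5o: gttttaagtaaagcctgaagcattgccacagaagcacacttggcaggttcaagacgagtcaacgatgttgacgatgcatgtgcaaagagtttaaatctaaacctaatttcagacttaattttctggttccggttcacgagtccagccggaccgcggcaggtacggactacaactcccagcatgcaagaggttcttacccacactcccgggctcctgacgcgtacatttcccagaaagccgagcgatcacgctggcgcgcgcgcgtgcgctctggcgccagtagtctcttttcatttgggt
Cox5a: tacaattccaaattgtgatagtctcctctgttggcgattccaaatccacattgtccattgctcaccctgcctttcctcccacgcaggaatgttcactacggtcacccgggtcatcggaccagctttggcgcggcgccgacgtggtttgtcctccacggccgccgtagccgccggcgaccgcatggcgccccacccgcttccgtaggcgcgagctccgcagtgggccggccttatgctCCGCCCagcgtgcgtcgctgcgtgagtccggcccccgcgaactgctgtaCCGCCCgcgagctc
Cox8a: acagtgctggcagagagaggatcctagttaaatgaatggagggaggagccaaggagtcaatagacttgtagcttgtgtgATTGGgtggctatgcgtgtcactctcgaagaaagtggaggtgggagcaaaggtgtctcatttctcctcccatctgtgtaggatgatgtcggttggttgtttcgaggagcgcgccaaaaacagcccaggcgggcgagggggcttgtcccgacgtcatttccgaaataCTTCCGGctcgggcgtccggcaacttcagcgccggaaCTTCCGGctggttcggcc
Atp5k: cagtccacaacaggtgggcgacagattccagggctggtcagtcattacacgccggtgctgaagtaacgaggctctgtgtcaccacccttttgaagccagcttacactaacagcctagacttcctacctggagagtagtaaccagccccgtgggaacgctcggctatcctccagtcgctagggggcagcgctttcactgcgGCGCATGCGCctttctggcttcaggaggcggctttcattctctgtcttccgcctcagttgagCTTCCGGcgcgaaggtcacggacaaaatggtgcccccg
The Atp5g1 window held CCAAT on the gene's strand at -229, -126, -95 and -69 from the start and once on the other strand at -92. The Cox8a window held the ETS stretch at -5 and 32, and the Cox6b1 window held it at -28 beside 3 CCAAT boxes. In the Atp5k window the NRF1 stretch began at -50 on one strand and at -49 on the other, with an ETS stretch at 12. The Cox5a window held the SP1 stretch on the other strand at -13 and 36, and none of the 7 stretches occurs in the Atp5o window.

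The 34 genes had 37 windows. The NRF1 stretch was found in 7 of these (18.9%) against 1.75% of all 32851 RefSeq promoter windows of the same length. The ETS stretch was found in 10 (27.0%, against 8.86% of all windows), CCAAT in 20 (54.1%, against 37.4%), and the ERR stretch in 1 (2.70%, against 0.423%). SP1 stood at 13 (35.1%, against 35.7%), YY1 at 4 (10.8%, against 6.34%) and TATA at 3 (8.11%, against 13.6%). Of the 14 genes that passed the diet test below, 13 had a window. Among these 13, NRF1 was found in 1, ETS in 3 and CCAAT in 7. These matches describe the letters in these windows and were not tested against the diet response.

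Transcript levels differed widely between the genes, and most were among the abundant transcripts of the heart. Means of at least 100 CPM were reached by 34 of the 45 genes, as by 1784 of all 15841 tested genes, and 8 of the 45 were among the 100 most abundant genes by CPM. Together the 45 genes took 3.12% to 3.22% of counts in HFHS ertugliflozin hearts, 2.94% to 3.20% in HFHS untreated, 3.33% to 3.48% in CD ertugliflozin and 3.20% to 3.39% in CD untreated hearts. Per kilobase of exon, averaged over the 16 libraries, the catalytic beta subunit gene Atp5b stood highest at 3219 CPM per kb. It was followed by the complex IV gene Cox4i1 at 2351, by Atp5g3, one of 3 genes for the rotor subunit c, at 1901, and by the catalytic alpha subunit gene Atp5a1 at 1873 CPM per kb. The ranges of Atp5g3 and Atp5a1 over libraries overlapped in the plot of levels, so their order was not resolved.

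Complex III genes lay close together, between 270 and 943 CPM per kb. Uqcrh, the hinge protein, stood at 943, the core protein genes Uqcrc1 and Uqcrc2 at 836 and 675, the Rieske iron-sulfur gene Uqcrfs1 at 696 and the cytochrome c1 gene Cyc1 at 583 CPM per kb. Uqcrb and Uqcrq, small subunits, were lowest at 296 and 270 CPM per kb. The exon length used was 1827 bases for Uqcrq and 547 for Uqcrh, while their means were 493 and 516 CPM. The low place of Uqcrq per kb therefore rests on its length. Complex IV and ATP synthase spread more widely. Other genes were low too, such as Atp5s at 18.3 CPM per kb, but both complexes also hold genes of isoforms that are hardly used in heart. Cox4i2, the hypoxia-linked form best known from lung, stood at 9.53 CPM per kb and Cox6b2, a testis form, at 1.32. The subunit c gene Atp5g2 stood at 2.50 CPM per kb. The testis genes Cox7b2, with 0 to 4 counts per library, and Cox8c, with 0 counts in all 16, failed the filter on low counts, which left 43 genes for the tests below.

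**Figure D1:**
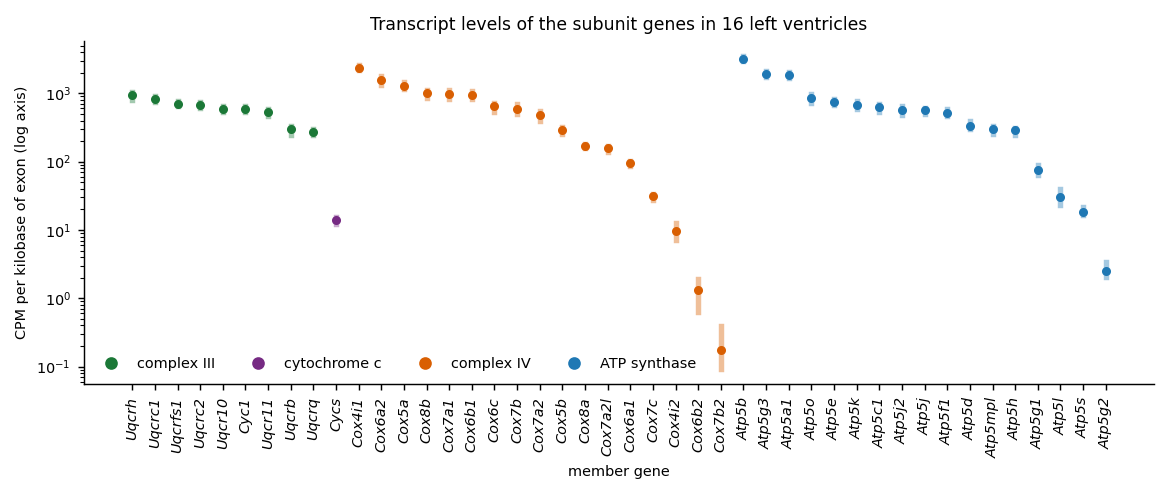
Mean level of each gene over 16 libraries in CPM per kilobase of exon (points, log axis) with the lowest and highest library (bars; libraries at 0 are not drawn for Cox7b2, and Cox8c, at 0 in every library, is left out), ordered by complex. Atp5b is highest at 3219 CPM per kb, and complex III lies between 270 and 943 CPM per kb.

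Some levels are uncertain because part of the transcript also occurs in other genes, mostly pseudogenes. Of all 50-base windows of the longest coding transcript, 68.5% were shared with other genes for Atp5l (subunit g), 47.9% for Atp5h (subunit d), 43.2% for Uqcrb, 35.5% for Atp5o, 28.2% for Cycs (shared with 43 genes) and 27.9% for Cox7c. For Atp5f1 the share was 23.2%, and for Atp5g1 it was 10.6%, shared with 163 genes. Cycs at 14.0, Cox7c at 31.0 and Atp5l at 30.2 CPM per kb were low beside the other subunits of their complexes or their partners. How reads with several matches were counted is not given in the sources used here, and whether it lowered these values was not tested. For Atp5g1 the exon length used was 4912 bases, longer than that of Atp5g3, which lowers its level per kb, at 75.4.

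The isoform pairs of complex IV were read as the share of one gene in the summed CPM of the pair. Over the 16 libraries Cox4i1 took 99.48% to 99.68% of its pair with Cox4i2, and Cox6b1 took 99.76% to 99.92% of its pair with Cox6b2. The muscle form Cox6a2 took 94.4% to 95.7% of its pair with Cox6a1, and the muscle form Cox8b took 77.5% to 81.8% of its pair with Cox8a. The muscle form Cox7a1 held the smallest majority, at 61.3% to 65.8% of its pair with Cox7a2. Each share was thus nearly constant across hearts.

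HFHS minus CD, averaged over both drug arms, was 0.460 percentage points for Cox8b, 0.231 for Cox7a1, 0.00223 for Cox4i1, -0.00181 for Cox6b1 and -0.223 for Cox6a2. In group means, Cox8b took 80.2% in HFHS ertugliflozin and 79.9% in CD ertugliflozin hearts, and 79.5% in HFHS untreated and 78.9% in CD untreated hearts. In an exact two-sided permutation test of diet labels within drug arms the p-values were 0.437, 0.718, 0.945, 0.938 and 0.249 in the order given, and 0.945 for each after Benjamini-Hochberg adjustment over the 5 pairs. The smallest p this design allows is 0.000408. No shift in the shares with diet was detected.

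The comparison of diets asks whether feeding on HFHS changed these genes. With the drug arms averaged, 14 of the 43 genes fell in HFHS hearts and 0 rose, and 40 of the 43 log2 fold changes were negative. All the changes were small: the largest fall, of the subunit c gene Atp5g1, left HFHS hearts at 0.869 times the level of CD hearts. Complex IV held 8 of the 14 among 16 tested genes and ATP synthase held 6 among 17. Complex III had 0 calls among 9, and Cycs was not called. At an unadjusted p under 0.05 complex III had 5 genes, complex IV 10 and ATP synthase 10, a threshold that 26.5% of all tested genes passed. The differences between complexes were not tested.

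A gene was called where edgeR's quasi-likelihood test gave a Benjamini-Hochberg adjusted p under 0.05 over 15841 genes. By that rule 5.01% of all tested genes were called lower in this comparison. The median log2 fold change of the 43 genes was -0.10, beside -0.01 over all tested genes. Errors of log2 fold changes are standard errors, each computed as the absolute change over the root of its F value.

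**Figure D2:**
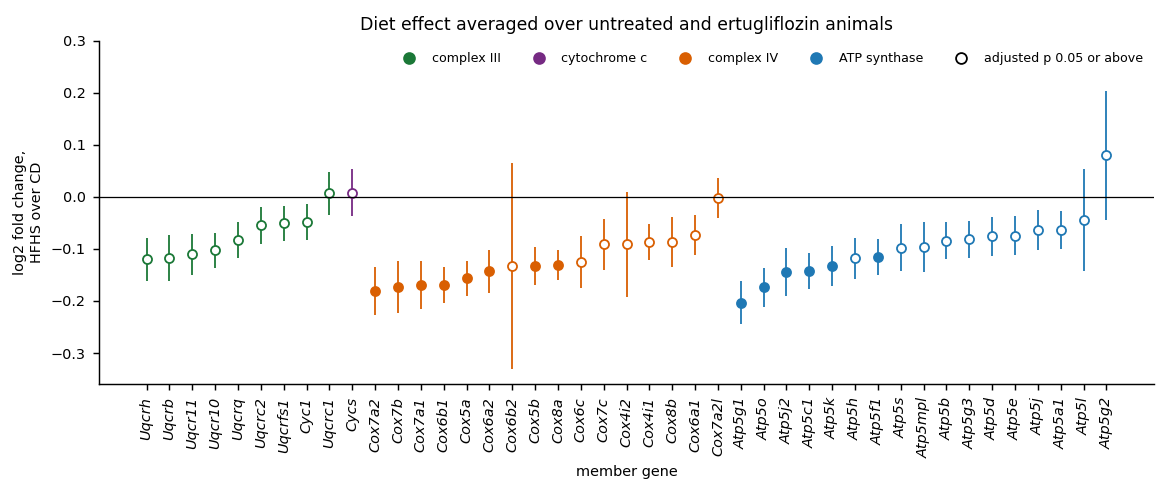
Log2 fold change of each tested gene, HFHS over CD, averaged over ertugliflozin and untreated hearts, with its standard error, by complex. Filled points are the 14 genes that fell, between -0.20 and -0.12, and open points did not pass the test.

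The largest fall was in ATP synthase. Atp5g1 (chr11:96068852-96075670), one of 3 genes that encode the same ring-forming subunit c, had 339, 342, 339 and 395 CPM in HFHS ertugliflozin hearts, against 406, 398, 398 and 434 CPM in CD ertugliflozin hearts. In untreated mice it had 357, 318, 350 and 314 CPM on HFHS, against 397, 372, 373 and 392 CPM on CD. Every HFHS heart was below every CD heart within each drug arm. The log2 fold change was -0.20 ± 0.04 (adjusted p = 0.00369). The other subunit c genes did not pass the test: Atp5g3, the abundant one, had a log2 fold change of -0.08 (adjusted p = 0.138) and Atp5g2 one of 0.08 (adjusted p = 0.727).

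Atp5o (chr16:91925214-91931687) encodes OSCP, the protein that joins the stator stalk to the catalytic head. It had 662, 703, 666 and 696 CPM in HFHS ertugliflozin hearts, against 731, 809, 755 and 782 CPM in CD ertugliflozin hearts. In untreated hearts it had 668, 610, 681 and 633 CPM on HFHS, against 774, 690, 694 and 765 CPM on CD. The diets did not overlap in either arm, and the log2 fold change was -0.17 ± 0.04 (adjusted p = 0.00547). A second gene identifier of the same name overlaps Atp5o in the annotation, which adds to the uncertainty of its counts.

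Atp5c1 (chr2:10056016-10080510), the gene of the rotating gamma subunit, had 1086, 1125, 1090 and 1160 CPM in HFHS ertugliflozin hearts, against 1182, 1258, 1224 and 1242 CPM in CD ertugliflozin hearts. The untreated values were 1078, 983, 1091 and 1024 CPM on HFHS, against 1213, 1113, 1092 and 1209 CPM on CD. Again no HFHS heart reached a CD heart of its arm, narrowly so in untreated mice, and the log2 fold change was -0.14 ± 0.04 (adjusted p = 0.0126).

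Atp5k, subunit e of the membrane part, had 235, 258, 243 and 256 CPM in HFHS ertugliflozin hearts, against 254, 286, 268 and 280 CPM in CD ertugliflozin hearts. Untreated hearts had 251, 221, 245 and 231 CPM on HFHS, against 267, 257, 245 and 270 CPM on CD. Single hearts overlapped in the ertugliflozin arm and in the untreated arm. The log2 fold change was -0.13 ± 0.04 (adjusted p = 0.0287). Atp5f1, the stator subunit b, and Atp5j2, subunit f, completed the 6, with log2 fold changes of -0.12 (adjusted p = 0.0366) and -0.14 (adjusted p = 0.0459).

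The catalytic subunit gene Atp5b did not pass the test. It averaged 6103 ± 218 CPM in HFHS ertugliflozin and 6357 ± 242 CPM in CD ertugliflozin hearts, and 5874 ± 288 CPM in HFHS untreated and 6336 ± 313 CPM in CD untreated hearts (SD, n = 4 each). Its log2 fold change was -0.08 ± 0.04 with an interval at 95% from -0.16 to -0.01 (adjusted p = 0.142).

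In complex IV the fall covered subunits of several kinds. Cox6b1 (chr7:30616861-30626151), a subunit of the face towards the intermembrane space, had 550, 565, 573 and 598 CPM in HFHS ertugliflozin hearts, against 620, 662, 627 and 665 CPM in CD ertugliflozin hearts. In untreated hearts the values were 579, 513, 558 and 526 CPM on HFHS, against 636, 594, 587 and 625 CPM on CD. The diets were separate in both arms. The log2 fold change was -0.17 ± 0.04 (adjusted p = 0.00439).

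Cox5a (chr9:57521274-57532426), a subunit of the matrix side, had 777, 788, 774 and 820 CPM in HFHS ertugliflozin hearts, against 916, 898, 845 and 957 CPM in CD ertugliflozin hearts. It had 755, 752, 813 and 779 CPM in HFHS untreated hearts, against 870, 809, 818 and 867 CPM in CD untreated hearts. The diets were separate with ertugliflozin and overlapped in 1 pair of hearts without it. The log2 fold change was -0.16 ± 0.03 (adjusted p = 0.00567). Cox5b, which also faces the matrix, had 248, 266, 254 and 271 CPM in HFHS ertugliflozin hearts, against 270, 295, 275 and 297 CPM in CD ertugliflozin hearts. Its untreated values were 258, 234, 257 and 241 CPM on HFHS, against 286, 262, 258 and 281 CPM on CD. Single hearts overlapped in both arms. Its log2 fold change was -0.13 ± 0.04 (adjusted p = 0.0246), with 25.9% of its windows shared with another gene.

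Both forms of subunit VIIa fell, while of the subunit VIII pair the common form was called and of the subunit VIa pair the muscle form. Cox7a1, the muscle form, had 532, 511, 495 and 531 CPM in HFHS ertugliflozin hearts, against 542, 605, 543 and 607 CPM in CD ertugliflozin hearts. It had 524, 440, 495 and 452 CPM in HFHS untreated hearts, against 568, 516, 502 and 591 CPM in CD untreated hearts. Only the ertugliflozin arm was free of overlap, and the log2 fold change was -0.17 ± 0.05 (adjusted p = 0.0218). Its partner Cox7a2 had 277, 312, 302 and 307 CPM in HFHS ertugliflozin hearts, against 317, 363, 341 and 337 CPM in CD ertugliflozin hearts. Untreated hearts had 332, 258, 290 and 283 CPM on HFHS, against 341, 320, 318 and 340 CPM on CD. One HFHS untreated heart, number 1, reached the CD range, and the log2 fold change was -0.18 ± 0.05 (adjusted p = 0.0154).

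Cox8a (chr19:7215153-7217616), the form found in most tissues, had 89.4, 89.6, 87.4 and 89.5 CPM in HFHS ertugliflozin hearts, against 95.7, 98.6, 94.6 and 97.7 CPM in CD ertugliflozin hearts. The untreated values were 90.8, 86.3, 88.4 and 90.5 CPM on HFHS, against 101, 101, 98.6 and 92.3 CPM on CD. It was the steadiest of the genes between hearts of a group, with a coefficient of variation of 2.73%, and the diets were separate in both arms. The log2 fold change was -0.13 ± 0.03 (adjusted p = 0.00652). The muscle form Cox8b did not pass, at 361 ± 12.4 CPM in HFHS ertugliflozin and 385 ± 16.6 CPM in CD ertugliflozin hearts, and 348 ± 42.7 CPM in HFHS untreated and 367 ± 19.6 CPM in CD untreated hearts (SD, n = 4 each).

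Cox6a2, the muscle form, had 1005, 1081, 968 and 1096 CPM in HFHS ertugliflozin hearts, against 1038, 1212, 1141 and 1138 CPM in CD ertugliflozin hearts. It had 979, 899, 995 and 960 CPM in HFHS untreated hearts, against 1098, 1045, 999 and 1142 CPM in CD untreated hearts. Here only the untreated arm was free of overlap, and the log2 fold change was -0.14 ± 0.04 (adjusted p = 0.0303). Cox6a1, the common form, averaged 52.5 ± 3.11 CPM in HFHS ertugliflozin and 55.3 ± 2.89 CPM in CD ertugliflozin hearts, and 54.8 ± 1.80 CPM in HFHS untreated and 57.7 ± 2.72 CPM in CD untreated hearts (SD, n = 4 each), and was not called. Cox7b, a small membrane subunit, had 548, 582, 586 and 628 CPM in HFHS ertugliflozin hearts, against 596, 704, 672 and 680 CPM in CD ertugliflozin hearts. Its untreated values were 613, 492, 546 and 513 CPM on HFHS, against 638, 596, 558 and 639 CPM on CD. Both arms overlapped, and the log2 fold change was -0.17 ± 0.05 (adjusted p = 0.0278).

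**Figure D3:**
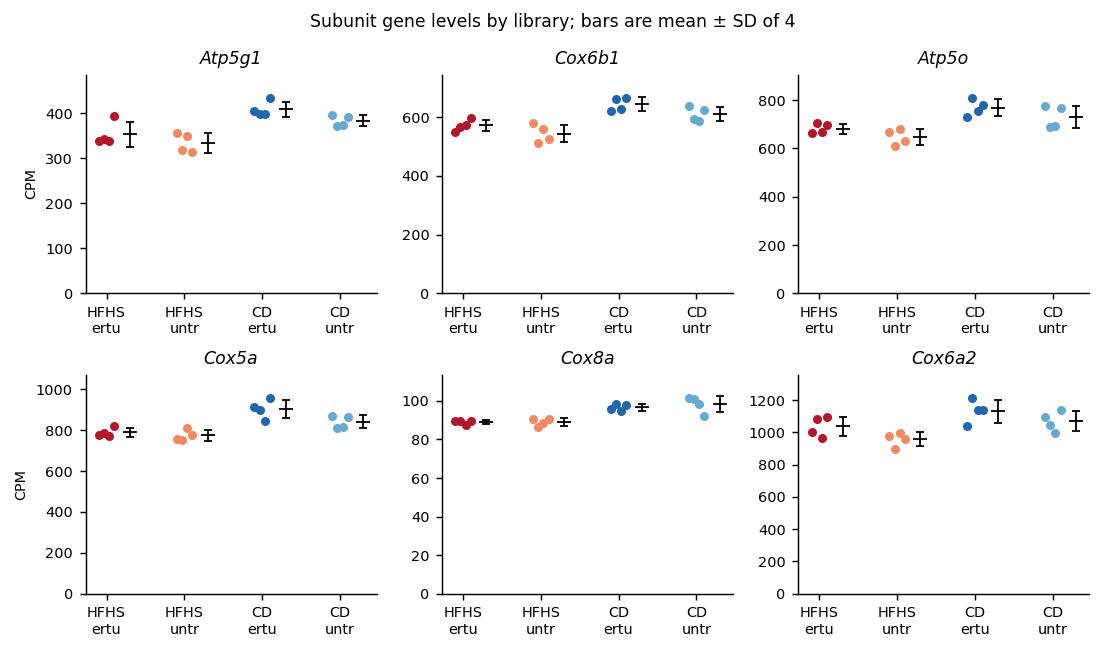
CPM of 6 of the genes that fell with diet, 1 point per heart, with the mean ± SD of each group of 4. Within each drug arm, HFHS hearts lie below CD hearts for Atp5g1, Cox6b1, Atp5o and Cox8a. For Cox5a 1 pair of untreated hearts overlaps, and for Cox6a2 the ertugliflozin arm overlaps.

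None of the 9 complex III genes passed the diet test. The smallest adjusted p was that of Uqcr10, a small subunit, with a log2 fold change of -0.10 (adjusted p = 0.0560). Uqcrh had -0.12 (adjusted p = 0.0663) and Uqcr11 -0.11 (adjusted p = 0.0804). The redox subunits Uqcrfs1 and Cyc1 were nearer to 0, at -0.05 each, as were the core protein genes Uqcrc2, at -0.05, and Uqcrc1 (below). Uqcrfs1 averaged 945 ± 20.04 CPM in HFHS ertugliflozin and 997 ± 50.4 CPM in CD ertugliflozin hearts, and 918 ± 31.6 CPM in HFHS untreated and 934 ± 36.9 CPM in CD untreated hearts (SD, n = 4 each). Cyc1 averaged 881 ± 25.0 CPM in HFHS ertugliflozin and 926 ± 46.7 CPM in CD ertugliflozin hearts, and 861 ± 37.3 CPM in HFHS untreated and 876 ± 38.9 CPM in CD untreated hearts (SD, n = 4 each). The intervals at 95% of their log2 fold changes were -0.12 to 0.02 and -0.12 to 0.03.

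Beside these, 3 of the 43 genes had a log2 fold change of 0 or above: Uqcrc1 at 0.01 (interval at 95% -0.08 to 0.09), Cycs at 0.01 (-0.09 to 0.10) and Atp5g2 at 0.08. Cox7a2l, which helps complexes III and IV to associate and is shortened in C57BL/6J mice, lay at 0.00 (interval at 95% -0.08 to 0.08). A p above the threshold does not show that these genes were equal between diets.

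How firmly the 14 calls hold depended on single hearts. The 7 genes Atp5g1, Cox6b1, Atp5o, Cox5a, Cox8a, Atp5c1 and Cox7a2 kept their call whichever of the 16 libraries was left out. Of the other 5 among the 12 of smallest p, Cox7a1 lost it in 4 of these fits, Cox5b, Atp5k and Cox6a2 in 8 each and Cox7b in 9. The number of calls was 23 without HFHS untreated library 1, a fit in which 7.22% of all tested genes were lower against 5.01% with every library. It was 7 without each of CD untreated 4, HFHS untreated 2, HFHS untreated 4 and HFHS ertugliflozin 3, 8 without each of CD untreated 1, CD ertugliflozin 2 and HFHS ertugliflozin 1, and 9 without CD ertugliflozin 4, with 3.46% to 4.29% of all tested genes lower in these 8 fits. Without CD untreated libraries 2 and 3, which stood apart in valve and cartilage markers, 13 genes were called and 3.70% of all tested genes were lower.

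Other transcripts moved with diet as well. Of 12 markers of ventricular cardiomyocytes 6 fell in HFHS hearts: Ckm at -0.28 ± 0.04 (adjusted p = 0.000213), the myosin light chain genes Myl2 at -0.21 (adjusted p = 0.00312) and Myl3 at -0.19 (adjusted p = 0.00142), the troponin genes Tnni3 at -0.21 (adjusted p = 0.00632) and Tnnt2 at -0.19 (adjusted p = 0.00932), and Pln at -0.16 (adjusted p = 0.00583), all log2 fold changes from edgeR. The list's median was -0.14. The others did not pass: Mybpc3 at -0.12, Myh6 at -0.08, Actc1 at -0.03, Atp2a2 at -0.01, Mb at 0.00 and Ryr2, which was positive, at 0.11. The summed level of the 12 ranged over 111787 to 119001 CPM in HFHS ertugliflozin, 107251 to 122351 in HFHS untreated, 117482 to 130165 in CD ertugliflozin and 115130 to 126476 CPM in CD untreated hearts. With the ventricular score of each library as a covariate, a fit added after these values were seen, 0 of the 14 genes were called and the median of the 43 was -0.06, while 2.84% of all tested genes were lower. In that fit Uqcrc1 was called, higher on HFHS, with a log2 fold change of 0.14 (edgeR adjusted p = 0.0437), as were 729 of all 15841 tested genes. The part of the cardiomyocyte transcripts in the fall of the subunit genes was not tested.

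Among 12 endothelial markers Kdr at 0.34 and Cdh5 at 0.28 rose and Aqp1 fell at -0.48, with a list median of 0.13. Their summed level was 2683 to 3022 CPM in HFHS ertugliflozin, 2604 to 3524 in HFHS untreated, 2569 to 2842 in CD ertugliflozin and 2388 to 2942 CPM in CD untreated hearts. Among 12 macrophage markers Lyz2 fell at -0.37, with a list median of -0.21. Of 5 tested adipocyte markers Cidea, a lipid droplet gene also found in heart, rose at 0.47. The other 4 were negative, and the list had a median of -1.88, with 3 of the 5 at an unadjusted p under 0.05. No tested marker of the valve and cartilage (9 tested), atrial (12), erythroid (8) or skeletal muscle (3) lists passed in this comparison, with medians of -1.01, -0.30, -0.11 and -0.22. With valve and atrial scores as covariates 4 of the 43 genes were called, Atp5g1, Cox7a1, Cox6b1 and Cox5a, and 2.04% of all tested genes were lower. The genes here are also short, with a median exon length of 1587 bases against 4024 over all tested genes, and after correction for length and GC content 5 were called, Atp5g1, Atp5o, Cox8a, Cox6b1 and Cox7a2, with 4.52% of all tested genes lower. The part of these marker levels and of length in the result was not tested beyond these fits.

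Genes of complexes I and II fell as well. Of 37 complex I subunit genes 8 fell and 0 rose, with a median of -0.09: Ndufb9 and Ndufa12 at -0.20 each, Ndufs7 at -0.16, Ndufb6 at -0.15, Ndufb11 at -0.14, and Ndufa11, Ndufb10 and Ndufs8 at -0.12 each. Of 4 complex II genes Sdhb, the iron-sulfur subunit, fell at -0.12. Among assembly factors, those that fell were 2 of 22 for complex IV (Higd1a at -0.16 and Surf1 at -0.11), 0 of 6 for complex III and 1 of 6 ATP synthase assembly and inhibitor genes (Tmem70 at -0.11), and the difference from the subunits was not tested. Among 14 regulators of mitochondrial biogenesis 0 fell and Ppargc1b, a coactivator of nuclear respiratory genes, rose at 0.32 (edgeR adjusted p = 0.0219).

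**Figure D4:**
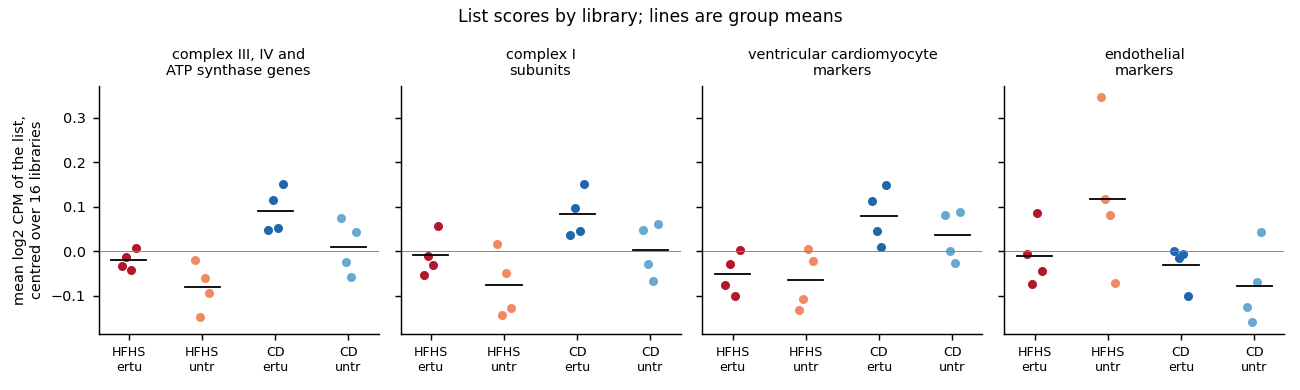
Mean log2 CPM of 4 gene lists in each heart, centred over the 16 libraries, with group means as lines. The subunit genes, the complex I genes and the ventricular markers have higher group means in CD ertugliflozin hearts than in HFHS ertugliflozin hearts and higher means in CD untreated than in HFHS untreated hearts, and HFHS untreated library 1 is highest for endothelial markers.

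Taken within the drug arms, which share no library, the diet comparison called few of the genes. With ertugliflozin 1 gene of 43 fell and 0 rose: Cox5a at -0.19 ± 0.05 (edgeR adjusted p = 0.0294), beside 1.53% of all tested genes called lower. Atp5g1 at -0.21 (adjusted p = 0.0507) and Cox6b1 at -0.17 (adjusted p = 0.0626) followed. At an unadjusted p under 0.05 there were 18 genes, as were 18.5% of all tested genes. Of the 43 changes 40 were negative, against 51.4% over all tested genes, and the median was -0.12. In 14 genes all 4 HFHS ertugliflozin hearts lay below all 4 CD ertugliflozin hearts, as in 6.38% of all tested genes. Of the 12 ventricular cardiomyocyte markers 6 fell in this arm (median -0.17), and all 12 macrophage markers and all 8 tested erythroid markers were negative (medians -0.39 and -0.34, with 0 called). The Cox5a call ended without any one of HFHS ertugliflozin libraries 1, 2 or 3 or CD ertugliflozin libraries 1, 2 or 4.

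In untreated mice 0 genes were called by edgeR, beside 0.619% of all tested genes called lower. At an unadjusted p under 0.05 there were 14, as were 16.5% of all tested genes. DESeq2 called 5, with 1.55% of all tested genes lower, and limma-voom 4, with 1.59% lower. Cox8a had a log2 fold change of -0.14 ± 0.04 (adjusted p = 0.0770), Cox6b1 -0.17 ± 0.05 (adjusted p = 0.0872) and Atp5g1 -0.20 ± 0.06 (adjusted p = 0.0874), all by edgeR. In 6 genes all HFHS untreated hearts lay below all CD untreated hearts, as in 4.22% of all tested genes. Without HFHS untreated library 1 the count was 9, with 1.92% of all tested genes lower, and without CD untreated library 4 it was 1, with 0.531% lower. Across both arms 37 of the 43 changes were negative in each and 0 positive in each, where 35.3% of all tested genes were negative in each and 33.4% positive. The 5 subunit genes that were separate in both arms were Atp5g1, Cox6b1, Atp5o, Cox8a and Atp5c1. The share of all tested genes separate in both arms was not computed, so this count has no background to compare it with. Markers of other cells differed in the untreated arm. All 9 tested valve and cartilage markers were negative (median -2.88, 8 at an unadjusted p under 0.05), and Cilp2 was called at -3.57. Their summed level was 31.6 to 63.5 CPM in HFHS untreated hearts, against 69.9 to 327 CPM in CD untreated hearts. Of 12 tested atrial markers 10 were negative and 2 positive (median -0.54, 5 at an unadjusted p under 0.05). Of 5 tested adipocyte markers 4 were negative (median -3.07, 4 of the 5 at an unadjusted p under 0.05), while Cidea was called higher at 0.37. Of 12 endothelial markers 11 were positive (median 0.20, 10 at an unadjusted p under 0.05), with Kdr and Cdh5 called, and of the 12 ventricular markers Ckm alone was called, at -0.30. With valve and atrial scores as covariates 0 of the 43 genes were called in this arm, a count already at 0 without them. Over all tested genes that fit called 5 higher and 3 lower (0.0189%), against 229 and 98 (0.619%) without the scores. The part of these markers in the differences was not tested.

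The drug comparisons ask whether ertugliflozin changed these genes on either diet. No gene was called on either diet. On CD, 39 of the 43 log2 fold changes were positive with a median of 0.08, and on HFHS 40 were positive with a median of 0.06. The 2 drug comparisons share no library with each other, but each shares its libraries with the diet comparisons above. In both together 38 subunit genes were positive in each and 2 negative in each, where 27.7% of all tested genes were positive in each and 25.8% negative. All 9 complex III genes were positive on both diets, between 0.06 and 0.12 on CD and between 0.03 and 0.12 on HFHS. Of 37 complex I genes 36 were positive on CD and 37 on HFHS, and all 4 complex II genes were positive on both. So were all 6 ATP synthase assembly and inhibitor genes. Of 22 complex IV assembly factors 17 were positive on CD and 12 on HFHS.

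Markers of other cells also differed between drug groups, none of them past the edgeR threshold. On CD all 9 tested valve and cartilage markers were negative (median -2.12, 7 at an unadjusted p under 0.05), at a summed 30.7 to 112 CPM in CD ertugliflozin hearts, against 69.9 to 327 CPM in CD untreated hearts. All 5 tested adipocyte markers were negative on CD as well (median -1.45, 1 at an unadjusted p under 0.05). Of 12 tested atrial markers 10 were negative and 2 positive on CD (median -0.21, 4 at an unadjusted p under 0.05). On HFHS all 8 tested erythroid markers were negative (median -0.41, 7 at an unadjusted p under 0.05), at a summed 273 to 361 CPM in HFHS ertugliflozin hearts, against 342 to 525 CPM in HFHS untreated hearts. All 12 endothelial and all 12 macrophage markers were negative there too (medians -0.12 and -0.20, 3 of each at an unadjusted p under 0.05). The 9 valve and cartilage markers were positive on HFHS (median 0.96, 0 at an unadjusted p under 0.05). The ventricular cardiomyocyte markers had medians of 0.04 on CD and 0.02 on HFHS. The part of these transcripts in the values of the subunit genes was not tested.

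On CD the background was 0.0189% of tested genes called in either direction by edgeR, and 5 of the 43 had an unadjusted p under 0.05, as did 6.17% of all tested genes, with 0 of the 43 called by DESeq2 and 0 by limma-voom. Cycs had 47.1, 45.9, 46.2 and 45.4 CPM in CD ertugliflozin hearts, against 43.3, 39.4, 38.8 and 43.8 CPM in CD untreated hearts. The groups did not overlap, and the log2 fold change was 0.16 ± 0.06 (adjusted p = 0.762). Cox6b2, near the detection limit, had 1.25, 1.25, 1.13 and 1.42 CPM with ertugliflozin, against 1.08, 0.872, 0.677 and 0.614 CPM without it, and a log2 fold change of 0.65 ± 0.27 (adjusted p = 0.771). Atp5s, an ATP synthase coupling factor, had 30.2, 31.4, 31.2 and 34.7 CPM with ertugliflozin, against 28.9, 28.2, 27.0 and 30.9 CPM without it, overlapping in 1 pair, and a log2 fold change of 0.15 ± 0.06 (adjusted p = 0.776). In 4 genes, Cycs, Cox6b2, Atp5f1 and Atp5g1, all ertugliflozin hearts lay above all untreated hearts, as in 1.78% of all tested genes.

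On HFHS 0% of all tested genes were called, and 0 of the 43 had an unadjusted p under 0.05, which 4.02% of all tested genes had. DESeq2 and limma-voom called 0 of the 43 each. Cox6a2, whose values are given above, had a log2 fold change of 0.11 ± 0.06, Atp5c1 0.10 ± 0.05 and Uqcrb 0.12 ± 0.06 (edgeR adjusted p = 0.9999 for each). Uqcrb, a small complex III subunit, had 149, 159, 158 and 167 CPM in HFHS ertugliflozin hearts, against 164, 131, 148 and 139 CPM in HFHS untreated hearts, where library 1 of the untreated group stood within the treated range. In 0 of the 43 genes were the treated hearts all above the untreated ones, a pattern seen in 1.31% of all tested genes.

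Averaged over both diets, 0 genes were called, as were 0% of all tested genes, and 9 of the 43 had an unadjusted p under 0.05, as did 5.57% of all tested genes. DESeq2 and limma-voom called 0 each. Uqcrb had a log2 fold change of 0.12 ± 0.04, Cox6b2 0.52 ± 0.20 and Atp5c1 0.09 ± 0.04 (edgeR adjusted p = 0.863 for each). The intervals at 95% limit the size of a drug effect on the abundant subunits. They ran from -0.05 to 0.11 for Atp5b, from -0.02 to 0.12 for Cox4i1 and from -0.02 to 0.13 for Cyc1 on the log2 scale.

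**Figure D5:**
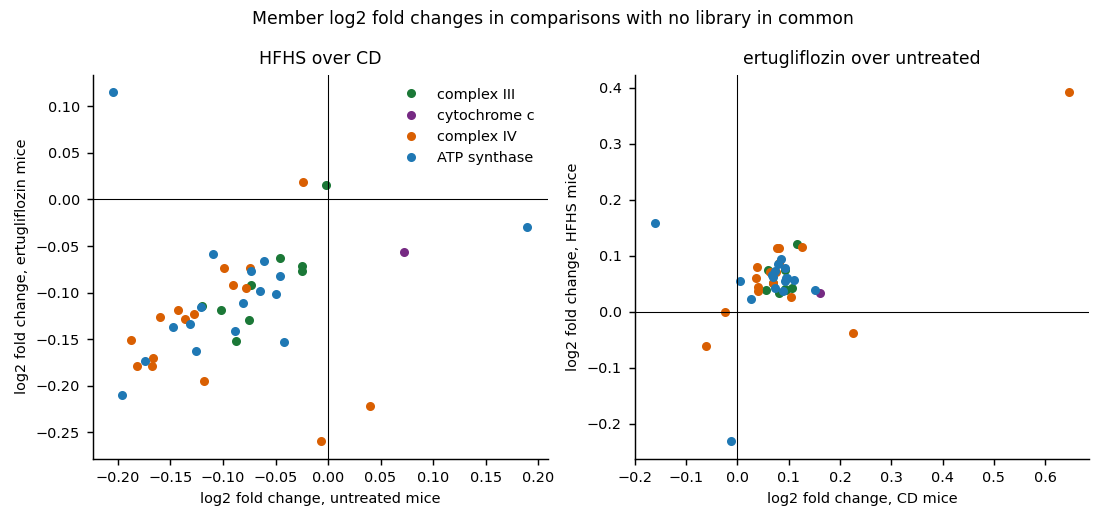
Log2 fold changes of the 43 tested genes in pairs of comparisons that share no library: HFHS over CD in untreated (x) and ertugliflozin (y) mice on the left, and ertugliflozin over untreated in CD (x) and HFHS (y) mice on the right. On the left 37 genes lie below 0 on both axes, and on the right 38 lie above 0 on both.

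Whether the drug effect differed between diets was tested as the difference of the 2 drug effects, HFHS minus CD. Of the 43 genes 0 were called, beside 0.0189% of all tested genes in either direction, and 0 had an unadjusted p under 0.05, which 4.27% of all tested genes had, with 0 called by DESeq2 and 0 by limma-voom. The difference was 0.32 ± 0.20 for Atp5l, -0.13 ± 0.09 for Cycs and -0.26 ± 0.20 for Cox4i2 on the log2 scale (edgeR adjusted p = 0.9998 for each). Atp5l had 19.6, 17.0, 14.8 and 16.9 CPM in HFHS ertugliflozin hearts, against 20.4, 14.4, 12.8 and 13.6 CPM in HFHS untreated hearts. On CD it had 15.2, 15.5, 14.6 and 17.7 CPM with ertugliflozin, against 21.9, 16.5, 17.3 and 14.96 CPM without it. Its groups overlapped on both diets, and its counts share most of their windows with other genes.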

How the data were processed

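The authors deposited raw counts per Ensembl gene (whole numbers, not normalized). The submitters' processing notes name mm10, Subread 1.6.2 with featureCounts, STAR 2.6.0c, DESeq2 1.22.1 and FastQC 0.11.7. Libraries were strand-marked, per the labels' protocols, while annotation, strand setting and multi-mapping rule were not given in the sources used here. Regularized log2 values that the authors deposited served only as an alternative input. Symbols, coordinates and lengths came from GENCODE M21 (GRCm38), with lengths as merged exons of basic protein-coding transcripts, and promoters from RefSeq (GRCm38.p6).

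Counts were fitted in R 4.3.3 with edgeR 4.0.16 (filterByExpr, TMM, 1 mean per group over all 16 libraries, robust quasi-likelihood test, Benjamini-Hochberg over 15841 genes, threshold 0.05). List scores are means of log2 CPM with a prior count of 2. Alternatives used limma 3.58.1 and DESeq2 1.42.0 and other scalings, filters, covariates and libraries. Each library counted as 1 replicate, since counts of 2 libraries of a group differed beyond sampling noise (chi-square over its degrees of freedom from 3.23 to 16.3).

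The genes and lists were chosen with earlier results of these data known. Full statistics were given to at most 12 called genes of smallest p per comparison, or to the 3 of smallest p where fewer than 3 were called. Isoform pairs, Cyc1, Cycs, Uqcrfs1 and Atp5b were given by level, and genes of other lists where they passed.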

Additional observations from a re-analysis of the deposited data

Results flagged for a closer look

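Each gene and group was screened for a single heart far from the other 3, by the gap to its neighbour over the range of the group. Of 172 such checks 11 passed the 95% limit, where chance gives about 1 in 20. In HFHS ertugliflozin hearts, library 3 was low for Atp5d, at 445 CPM with the others at 466 to 469, and for Cox8a, at 87.4 CPM with the others at 89.4 to 89.6. In the same group library 1 was low for Uqcrh, at 474 CPM (others 508 to 514), and high for Cox4i2, at 8.73 CPM (others 6.52 to 6.75). Library 4 of that group was high for Atp5g1, at 395 CPM (others 339 to 342). In HFHS untreated hearts library 3 was high for Cox4i1, at 1780 CPM (others 1678 to 1690). In CD ertugliflozin hearts library 4 was high for Atp5f1, at 952 CPM (others 878 to 887), and for Uqcrc2, at 1417 CPM (others 1311 to 1329), and library 1 was low for Cox8b, at 361 CPM (others 391 to 397). In CD untreated hearts library 3 was low for Uqcrq, at 468 CPM (others 500 to 506), and library 4 was low for Cox6a1, at 53.6 CPM (others 58.8 to 59.3).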

How the results depend on the processing

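Percentages in brackets give the share of all tested genes called lower in the same fit. For the diet effect averaged over drug arms (14 genes, 5.01%), the count was 3 with the replicate block and length and GC correction (4.30%), 5 with length and GC correction alone (4.52%) and 4 with valve and atrial scores (2.04%). The count was 1, a rise, with the ventricular score (2.84%), a fit in which 729 of 15841 tested genes were called higher. It ran from 7 to 23 when single libraries were left out (3.46% to 7.22%). With ertugliflozin (1 gene, 1.53%), it was 2 with RLE scaling (1.55%), 3 with upper-quartile scaling (1.91%), 2 with a filter of 1 CPM in 4 libraries (1.78%), 3 with only the groups compared (1.82%), 3 with limma-voom (2.27%), 2 with the regularized log2 values (1.54%) and 5 with DESeq2 (2.64%). It was 0 with the length and GC correction (with or without the block) and with either marker score (1.24% to 1.65%), and 0 to 4 when single libraries were left out (0.662% to 2.16%). Without drug (0 genes, 0.619%), it was 4 with limma-voom (1.59%), 5 with DESeq2 (1.55%) and 0 to 9 when single libraries were left out (0.193% to 1.92%). The causes of these shifts were not tested. Every drug and interaction count was 0 under each alternative. The median over the genes kept its sign for diet and drug under each alternative, and for the interaction, at -0.01, it turned positive under 10 of them, up to 0.04 without CD untreated libraries 2 and 3. Isoform differences close to 0 changed sign when single libraries were left out. The lowest and highest values were -0.0163 and 0.0173 percentage points for Cox4i1, -0.0145 and 0.0100 for Cox6b1 and -0.181 and 0.477 for Cox7a1. The sample titles number the hearts 1 to 4 within each group, while the deposited column names number them 1 to 16 in series. Whether the replicate numbers pair the libraries was not settled. Same-numbered pairs correlated at -0.240 to 0.313, with 6 of 24 over 0.1. Differently numbered pairs correlated at -0.264 to 0.267, with 12 of 72 over 0.1. For 7 of 16 libraries the best match carried their own number. With the replicate block 13 genes were called for diet averaged over drug arms (4.74%), 1 with ertugliflozin (1.40%) and 0 in each other comparison. With 4 hearts per group the mean isoform difference within same-numbered pairs equals the difference of group means. It therefore could not change, and was 0.460 points for Cox8b as before.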
